A study of Mus musculus with 16 samples.

Results

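The transient P21 state of the mouse annulus fibrosus is described here as the genes that stood apart at postnatal day 21 from both flanking ages, P14 and P28. For each gene, the mean of log2(value + 1) at P14 and that at P28 were averaged and subtracted from the mean at P21. A positive contrast means a level at P21 above that average and a negative one a level below it. P21 need not lie beyond both ages. Of 9391 genes with a negative contrast 5641 were below both, and of 8186 with a positive one 4776 were above both. Of 17577 genes tested, 13 passed a Benjamini-Hochberg adjusted p of 0.05 in limma, 5 of them higher at P21 (0.0284% of the genes tested) and 8 lower (0.0455%), which is 0.074% in all. The stricter class, in which the steps from P14 to P21 and from P21 to P28 also each passed, held 1 peak gene, Ablim1, and 5 dip genes, Rny3, Rny1, Gm23262, Tnc and Cthrc1. Comparisons of P21 with P14 and with P28 share the P21 libraries and are not independent of each other. Alone, P21 differed from P14 in 241 genes (1.37%), from P28 in 38 (0.216%) and from P5 in 4186 (23.8%).

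All samples were tail annulus fibrosus of C57BL/6 mice of wild-type genotype, with no treatment named, at P5, P14, P21 or P28. There were 4 samples per age, and the contrast used the 12 of the 16 from P14, P21 and P28, with P5 kept in the fit. Each sample pooled 2 to 3 mice, males and females together, and each mouse gave 10 discs. Total RNA was depleted of ribosomal RNA and sequenced. A p-value therefore measures the spread between pools, and the level in a pool is a mix of whatever cells the dissection kept.

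The annulus fibrosus is the ringed outer part of the intervertebral disc, made of lamellae of crossed collagen fibres around the gel-like nucleus pulposus. Its outer cells resemble tendon fibroblasts and its inner cells resemble chondrocytes. In the weeks after birth the mouse disc goes through fast growth, matrix deposition and rising load, and P21 is about the usual age of weaning.

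The annulus genes were abundant in each of the 12 libraries. Col1a1, the type I collagen chain of fibrous tissue, had 1438700 to 4573300 normalised reads, and Col2a1, the cartilage collagen, had 976550 to 1841800. Acan, the main proteoglycan of cartilage, had 73375 to 172450, and Tnmd, a tendon membrane protein, had 2183 to 10143. None of the 12 genes followed in every case (Col1a1, Col2a1, Acan, Scx, Tnmd, Mkx, Sox9, Eln, Lox, Mki67, Tgfb1 and Gli1) was called.

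Some libraries stood apart. The P14 libraries held 10549937 to 23719004 reads in the table, those of P21 17380812 to 22084986 and those of P28 20263292 to 24782845. P21 replicates 3 and 4 correlated at 0.9895, against 0.9194 to 0.9743 for the other 23 pairs within an age, and their chi-square per gene was 2.63 against 26.7 or more. That is still above the noise of read sampling, and they were kept as the separate samples they are labelled. The value cannot show whether they came from separate pools of mice, which was not tested. With the pair averaged to 1 sample no gene was called higher and 3 were called lower, Rny3, Rny1 and Gm23262. The other 10 of the 13 calls were also lost when either replicate 3 or replicate 4 was left out. Snap25, a synaptic protein of neurons, had 840 and 748 normalised reads in P21 replicates 1 and 2 and 270 in P14 replicate 2, and 0 to 44.8 in the other 9 libraries. The noncoding transcript Gm26917 held 9.05% and 8.05% of reads in P14 replicates 3 and 4 and 1.71% to 5.12% in the other 10. Pools of both sexes are described, but Xist, the RNA of the inactive X chromosome, reached 528 normalised reads for P14 replicate 3 and 141 for P28 replicate 4, while the other 10 libraries had 3817 to 41590. P14 replicate 4 had 10.1 of the Y-linked gene Ddx3y, while the other 11 had 338 to 900.3. Without those 3 libraries 2 genes were called higher and 5 lower.

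**Figure D1:**
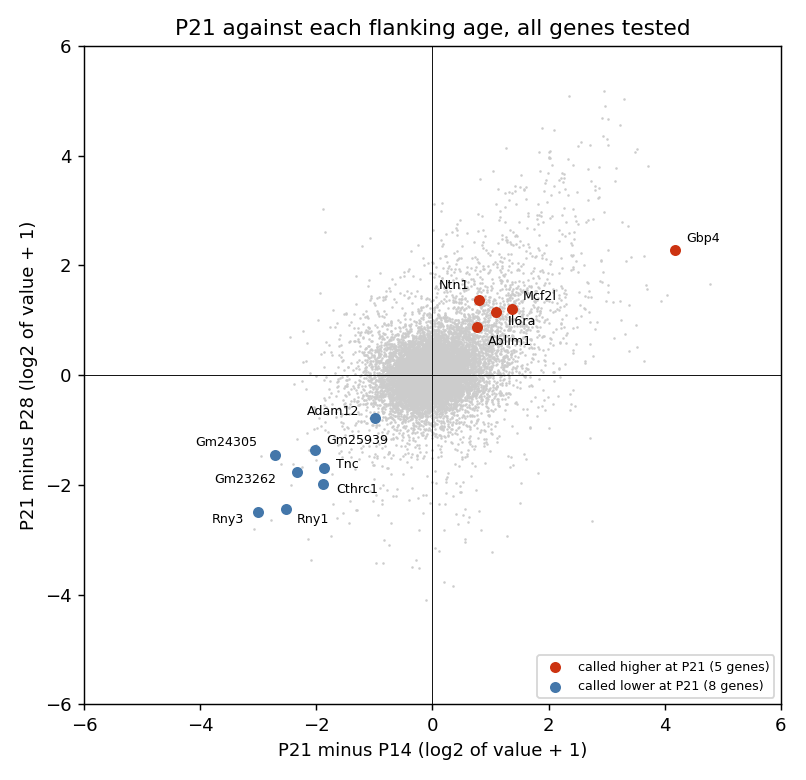
Each grey point is one of the genes tested, placed by its difference of P21 from P14 (x axis) and from P28 (y axis), both in log2 of value + 1. The 8 genes called lower (blue) lie below 0 on both axes and the 5 called higher (red) lie above 0 on both, and 1 gene falls outside the plotted range.

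The lowest adjusted p-values of all belonged to 2 short RNAs. Rny3 and Rny1 encode the Y RNAs of the mouse, noncoding RNAs made by RNA polymerase III that bind the Ro60 protein and are known for roles in RNA quality control and the start of DNA replication. They were outside the rule for naming genes, which leaves out small RNAs, and were chosen after their values were seen. The genes lie 6343 bases apart on chromosome 6 on opposite strands (GENCODE M21, build GRCm38), Rny3 at chr6:47781624-47781725 on the plus strand and Rny1 at chr6:47788069-47788180 on the minus strand. Their transcripts matched at 81 of 113 aligned positions (71.7%), and both sequences are printed because reads from one could be mistaken for the other only where they share letters. Capitals mark runs of 8 or more bases found in both.
Rny3: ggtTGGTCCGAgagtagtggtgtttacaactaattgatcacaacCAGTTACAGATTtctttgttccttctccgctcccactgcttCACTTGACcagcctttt
Rny1: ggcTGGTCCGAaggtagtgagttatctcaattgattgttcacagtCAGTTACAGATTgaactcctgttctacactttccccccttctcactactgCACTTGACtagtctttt

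Rny3 had 253, 128, 294 and 161 normalised reads in P21 replicates 1 to 4, against 2655, 1148, 1574 and 1329 at P14 and 1100, 1339, 1187 and 924 at P28. Every P21 library was below every library of the other 3 ages, and the P5 libraries, at 651 to 1213, sat with P14 and P28. The contrast was -2.75 ± 0.24 (SE) on the log2 scale, with an adjusted p of 5.2e-05 in limma. Rny1 had 209, 127, 156 and 123 at P21, against 1292, 566, 1168 and 659 at P14 and 998, 811, 770 and 723 at P28. Its 4 P21 libraries were again below all 12 others, since the P5 values ran from 304 to 549. Its contrast was -2.48 ± 0.22, with the same adjusted p of 5.2e-05 in limma. Both genes kept the call in each of the 33 alternative analyses. The next gene along the chromosome, Pdia4, a chaperone of the endoplasmic reticulum, had a contrast of -0.33 ± 0.26 (limma adjusted p 0.721).

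3 further small RNA genes were called lower. They too were named after their values were seen. For Gm25939 and Gm24305 the marked letters point to the RNA each resembles, and for Gm23262 they do not. Gm23262 (GENCODE type snoRNA, chr7:111076060-111076227, minus strand) shares 89.3% of its length with exons of Eif4g2, a translation factor gene on the same stretch, so reads of the 2 genes may not be separable. Its capitals mark the first and last bases, which are complementary to each other. Gm25939 (snRNA, chr1:72255008-72255198, plus strand) holds the letters by which U2 RNA pairs with the branch site of introns, in capitals. Gm24305 (snRNA, chr12:54734555-54734718, minus strand) holds near its start the letters by which U1 RNA pairs with the 5′ splice site, in capitals. U1 and U2 have many near-identical copies in the mouse genome, so the split of reads between copies is uncertain.
Gm23262: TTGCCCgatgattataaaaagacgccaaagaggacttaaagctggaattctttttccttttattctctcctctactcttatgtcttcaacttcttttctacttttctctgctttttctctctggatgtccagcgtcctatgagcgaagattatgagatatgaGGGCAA
Gm25939: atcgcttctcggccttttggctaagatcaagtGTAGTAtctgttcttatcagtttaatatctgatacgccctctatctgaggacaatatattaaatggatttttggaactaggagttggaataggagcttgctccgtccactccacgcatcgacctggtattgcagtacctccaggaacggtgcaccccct
Gm24305: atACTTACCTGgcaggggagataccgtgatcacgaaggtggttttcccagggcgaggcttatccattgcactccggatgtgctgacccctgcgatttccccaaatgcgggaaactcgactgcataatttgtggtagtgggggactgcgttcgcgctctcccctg

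Gm23262 had 57.3, 45.4, 70.2 and 37.3 normalised reads at P21, against 186 to 453 at P14 and 132 to 235 at P28. Its P21 libraries were below the 137 to 303 of P5 too, and the contrast was -2.05 ± 0.25 (limma adjusted p 0.0028), a call that also stood in all 33 alternatives. Gm25939 had 120, 93.7, 138 and 88.2 at P21, against 298 to 808 at P14 and 188 to 367 at P28. Gm24305 had 124, 139, 80.0 and 69.9 at P21, against 250 to 1359 at P14 and 235 to 399 at P28. In both genes the P21 libraries were below all 12 others. Their contrasts were -1.69 ± 0.27 (limma adjusted p 0.028) and -2.08 ± 0.36 (0.042). The step between P21 and P28 alone did not pass for either, with limma adjusted p of 0.073 for Gm25939 and 0.140 for Gm24305.

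Small RNA genes as a whole were mixed. Of 84 snoRNA genes tested, which guide modification of ribosomal and spliceosomal RNA, 29 had a negative contrast at an unadjusted p under 0.05 and none a positive one (background 5.3% of all genes lower), and the median contrast was -0.37 against -0.02 for all genes. Without the called Gm23262 the count was 28 of 83 and the median -0.33. The snoRNA difference lay mostly on the P14 side, with medians of -0.81 against P14 and -0.17 against P28, and P21 replicate 2 lay above all 4 P28 libraries in the median snoRNA level. In 8 of the 84, all 4 P21 libraries were below all 8 flanking ones, where 0.609% of all genes were. Medians were near 0 for snRNA (-0.01), miscellaneous RNA (-0.06) and miRNA genes (-0.07). In these types 32 of 63, 23 of 44 and 54 of 95 genes had a negative contrast. For scaRNA it was 8 of 10 (median -0.16) and for mitochondrial tRNA 14 of 16 (median -0.35), against 53.4% of all genes. The scaRNA medians were -0.53 against P14 alone and 0.08 against P28 alone. Those of mitochondrial tRNA were -0.92 and 0.25. Among 46 small RNA genes with a mean of at least 50 reads, 5 were the called ones. Without these, the median contrast was -1.01 for 15 transcripts of 121 to 200 bases, of which 13 were negative. The 91 to 120 base class kept 2 transcripts, 1 of them negative. The median was -0.27 for 6 transcripts of 90 bases or fewer and -0.27 for 18 above 200 bases. Rn7sk, the 331-base RNA that holds the elongation factor P-TEFb inactive, had a contrast of 0.08 ± 0.27 (limma adjusted p 0.963).

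Rn7sk had 239650, 188860, 176850 and 182010 normalised reads at P21, against 145230 to 210180 at P14 and 153820 to 271260 at P28, with the 3 ages overlapping. Rmrp, the RNA of the RNase MRP enzyme that processes ribosomal RNA, had 35152, 36810, 27694 and 24773 at P21, against 43627 to 141780 at P14 and 32052 to 63781 at P28. Its P21 values were below all P14 values but overlapped P28, and the contrast of -0.91 was not called (limma adjusted p 0.165). Rpph1, the RNA of RNase P, overlapped at both sides (27787 to 64413 at P21, 39469 to 323090 at P14, 39405 to 54640 at P28). Its contrast was -0.79 and was not called. Snora23, a snoRNA, had 37.7 to 82.2 at P21, 93.7 to 418 at P14 and 84.5 to 146 at P28. These did not overlap, but the contrast of -1.42 had a limma adjusted p of 0.075. Gm22513, another snRNA, had 569 to 1375 at P21, 1770 to 9846 at P14 and 1604 to 2404 at P28, with a contrast of -1.75 (limma adjusted p 0.073).

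The share of all reads in small RNA genes overlapped between the 3 ages: it was 1.13% to 1.57% at P21, 0.801% to 1.19% at P14 and 0.840% to 1.52% at P28. Reads of Rn7sk made up most of this share, so it says little about the shorter RNAs. How far the size range kept during library preparation bears on the short transcripts was not tested.

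**Figure D2:**
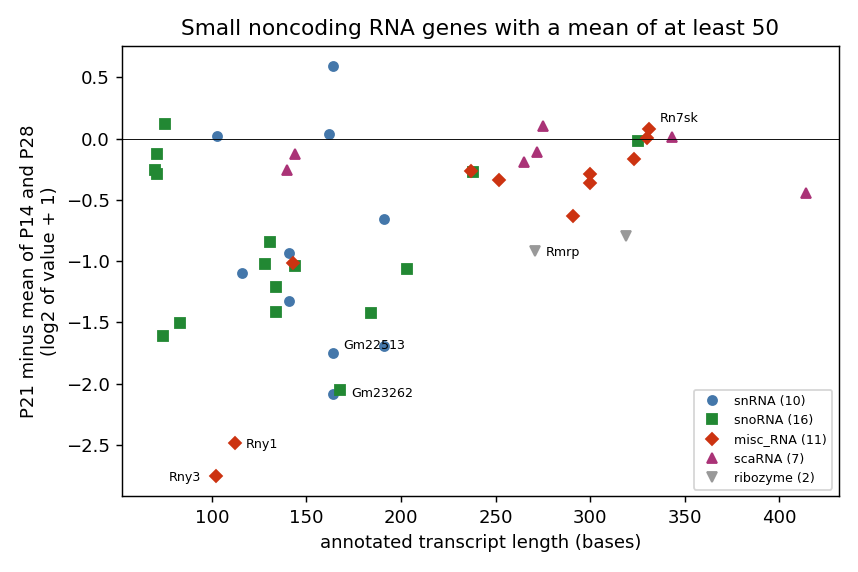
Each point is 1 of 46 small RNA genes with a mean of at least 50 normalised reads, placed by annotated length in bases (x axis) and by the contrast of P21 with the mean of P14 and P28 in log2 (y axis), with the GENCODE type as colour. Rny3 and Rny1 lie lowest, and Rn7sk, at 331 bases, lies near 0.

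3 protein-coding genes of the extracellular matrix and its turnover were called lower at P21. Tnc encodes tenascin-C, a matrix glycoprotein of growing tendon and ligament and of tissue under repair. It had 3488, 2390, 1306 and 1242 normalised reads at P21, against 3842, 8970, 8690 and 8182 at P14 and 6931, 7133, 6854 and 4405 at P28. The P21 libraries were below the other 12, though P21 replicate 1 and P14 replicate 1 came close. The contrast was -1.79 ± 0.28 (limma adjusted p 0.028). An antisense transcript, 8030451A03Rik, shares 2.3% of the exon length of Tnc and had a contrast of -2.22 without being called (limma adjusted p 0.077). The strand setting of the counting is not given in the sources used here, so reads of the overlapping stretch cannot be assigned to one of them.

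Cthrc1 encodes a secreted protein with a collagen-like repeat, made by activated fibroblasts and bone cells. It had 101, 36.0, 38.1 and 36.5 normalised reads at P21, against 227, 237, 114 and 162 at P14 and 284, 221, 174 and 119 at P28. The 4 libraries at P21 were lowest of the 16, and replicate 1 was the nearest to the others. Its contrast was -1.93 ± 0.31 (limma adjusted p 0.028). Adam12, a membrane-anchored metalloprotease of mesenchymal cells, had 842, 626, 558 and 545 at P21, against 959 to 1493 at P14 and 921 to 1368 at P28. Its contrast was -0.89 ± 0.15 (limma adjusted p 0.033), while the step to P28 alone gave 0.057. With P21 replicates 3 and 4 averaged, all 3 genes lost the call (adjusted p 0.184 for Tnc, 0.184 for Cthrc1 and 0.204 for Adam12), with contrasts of -1.59, -1.82 and -0.82.

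Other genes of matrix assembly mostly had negative contrasts without being called. Among all genes tested, 53.4% had a negative contrast, 5.3% were lower at an unadjusted p under 0.05 and 6.66% higher, and the list counts that follow are to be read beside these shares. Of 29 genes that process and crosslink collagen, 26 had a negative contrast, 9 of them at an unadjusted p under 0.05 and 1 the other way, with a median of -0.39 and none called. Bmp1, the protease that removes the C-terminal propeptide of procollagen, had 2312, 2576, 2332 and 2579 normalised reads at P21, against 2898 to 3325 at P14 and 3705 to 4768 at P28. These did not overlap, and the contrast was -0.54 ± 0.11 (limma adjusted p 0.065). Lox, the lysyl oxidase that starts crosslinking, had 14114, 8419, 10310 and 10198 at P21, against 12638 to 33546 at P14 and 14507 to 26115 at P28. Its contrast was -0.93 ± 0.31 (limma adjusted p 0.218), and P21 replicate 1 lay above P14 replicate 3. Serpinh1, the collagen chaperone, had 6350 to 10355 at P21, 11922 to 18047 at P14 and 8388 to 14521 at P28, with a contrast of -0.68 (limma adjusted p 0.193).

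Fibrillar collagens themselves were not called: 9 of 11 had a negative contrast, 1 at an unadjusted p under 0.05, and the median was -0.34. Col1a1 had a contrast of -0.36 (limma adjusted p 0.927) and Col2a1 of -0.41 (0.889). Among 15 tendon-type genes tested, 1 was called lower, Tnc, the other 14 were not called, and the median was -0.34. Scx, the transcription factor of tendon progenitors, had 2968, 5210, 2433 and 2578 at P21, against 6804 to 12876 at P14 and 2792 to 9036 at P28, so P28 overlapped P21 (contrast -1.21, limma adjusted p 0.380). Tnmd (contrast -0.10) and Mkx (-0.05), a tendon transcription factor, both turned positive under some alternatives. These medians depend on scaling: setting every library to the same total moves the median contrast of all genes from -0.02 to 0.195. The collagen processing median then becomes -0.18.

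ATF4 targets, which supply amino acids and respond to their shortage, also had mostly negative contrasts. Of 22 tested, 20 had a negative contrast, 8 at an unadjusted p under 0.05 and none positive at that level (5.3% and 6.66% of all genes), with a median of -0.39 and none called. The median was -0.17 with every library set to the same total, where that of all genes was 0.195. Trib3, a pseudokinase induced by ATF4, had 31.9, 20.8, 35.9 and 36.5 at P21, against 45.3 to 70.5 at P14 and 47.2 to 107 at P28. The groups did not overlap, and the contrast was -0.99 (limma adjusted p 0.141). P5, at 10.2 to 25.4, was lower than P14 and P28 as well. Of 28 genes for secretion and folding in the endoplasmic reticulum, 25 had a negative contrast (53.4% of all genes), 4 at an unadjusted p under 0.05, with a median of -0.28 and none called. That median was -0.06 at the same total.

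Growth factor genes gave no call. Of 18 FGF pathway genes, 5 were lower and 1 higher at an unadjusted p under 0.05 (5.3% and 6.66% of all genes). The median of -0.15 turned to 0.06 when libraries were set to the same total, where that of all genes was 0.195. Fgf18, a ligand that acts on cartilage and bone, had 8.71, 7.57, 1.49 and 1.59 normalised reads at P21, against 17.3 to 25.7 at P14 and 9.02 to 22.2 at P28. It did not overlap, but at these few reads the contrast of -1.97 had a limma adjusted p of 0.065. Fgf1, another ligand, went the other way with 559, 181, 502 and 457 at P21, against 67.0 to 234 at P14 and 121.3 to 215 at P28, and P21 replicate 2 lay inside the flanking range (contrast 1.44, limma adjusted p 0.087). Etv4, a transcription factor induced by FGF signals, had 73.3, 145, 61.3 and 59.6 at P21, against 110 to 170 at P14 and 185 to 404 at P28, with replicate 2 inside the P14 range (contrast -1.23, limma adjusted p 0.080).

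In the IGF list, 3 of 19 were lower and none higher at an unadjusted p under 0.05. The median of -0.03 turned to 0.19 at the same total, where that of all genes was 0.195. Igfbp5, a binding protein that holds IGF in the matrix, had 1307, 982, 1240 and 1277 at P21, against 1641 to 2927 at P14 and 2503 to 5575 at P28 (contrast -1.22, limma adjusted p 0.100). Igfbp4, another binding protein, had 4487, 3152, 3162 and 3439 at P21, against 5181 to 5875 at P14 and 5253 to 10812 at P28 (contrast -0.78, limma adjusted p 0.067). Neither gene overlapped. In the TGF-beta and BMP list, 8 of 30 were lower and 1 higher at that level (5.3% and 6.66% of all genes), with a median of -0.09 that turned to 0.13 at the same total. Its inhibitor Smad7 had 367 to 435 at P21, 542 to 833 at P14 and 372 to 695 at P28 (contrast -0.55, limma adjusted p 0.130). The ligand gene Tgfb1 had 1111 to 1534 at P21, 1201 to 1809 at P14 and 1794 to 2518 at P28 (contrast -0.48, limma adjusted p 0.165).

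Of the genes called higher, Ablim1, an actin-binding LIM protein, was the single one to pass both steps. It had 2247, 1904, 2316 and 2314 normalised reads at P21, against 1277, 1426, 1056 and 1409 at P14 and 1197, 1276, 1088 and 1233 at P28. The 4 P21 libraries were the highest of the 16, with P5 at 679 to 1188. The contrast was 0.82 ± 0.14 (limma adjusted p 0.037). Ntn1, the secreted guidance cue netrin-1, had 1351, 1252, 2160 and 2298 at P21, against 909 to 1063 at P14 and 451 to 893 at P28. Its P21 values were also the highest of all, in 2 levels, and the contrast was 1.08 ± 0.19 (limma adjusted p 0.039), with the step from P14 at 0.078.

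Mcf2l, a guanine nucleotide exchange factor, had 123, 210, 158 and 151 normalised reads at P21, against 47.6 to 73.7 at P14 and 60.7 to 77.9 at P28. P21 did not overlap its flanks, but P5, at 98.3 to 242, was as high, so P21 was not a peak over all ages (P21 minus P5 was 0.13, limma adjusted p 0.752). The contrast was 1.29 ± 0.21 (limma adjusted p 0.034). Il6ra, the binding subunit of the interleukin 6 receptor, had 707, 618, 1342 and 1437 at P21, against 381 to 520 at P14 and 363 to 489 at P28. Replicates 3 and 4 stood well above replicates 1 and 2, and all 4 lay above the other 12 libraries. The contrast was 1.12 ± 0.20 (limma adjusted p 0.045).

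The threshold fell in a dense stretch of the ranking. Il6ra, at 0.045, was the last gene inside it. The first outside were Pdxk, the kinase that activates vitamin B6 (contrast 0.80, adjusted p 0.053), and Cxcl14, a chemokine (-1.22, 0.056), both values of limma. With P21 replicates 3 and 4 averaged, all 5 genes called higher lost the call, at adjusted p of 0.099 for Gbp4, 0.184 for Mcf2l, 0.204 for Ablim1, 0.211 for Ntn1 and 0.211 for Il6ra, and their contrasts were 3.13, 1.30, 0.79, 0.95 and 0.94.

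**Figure D3:**
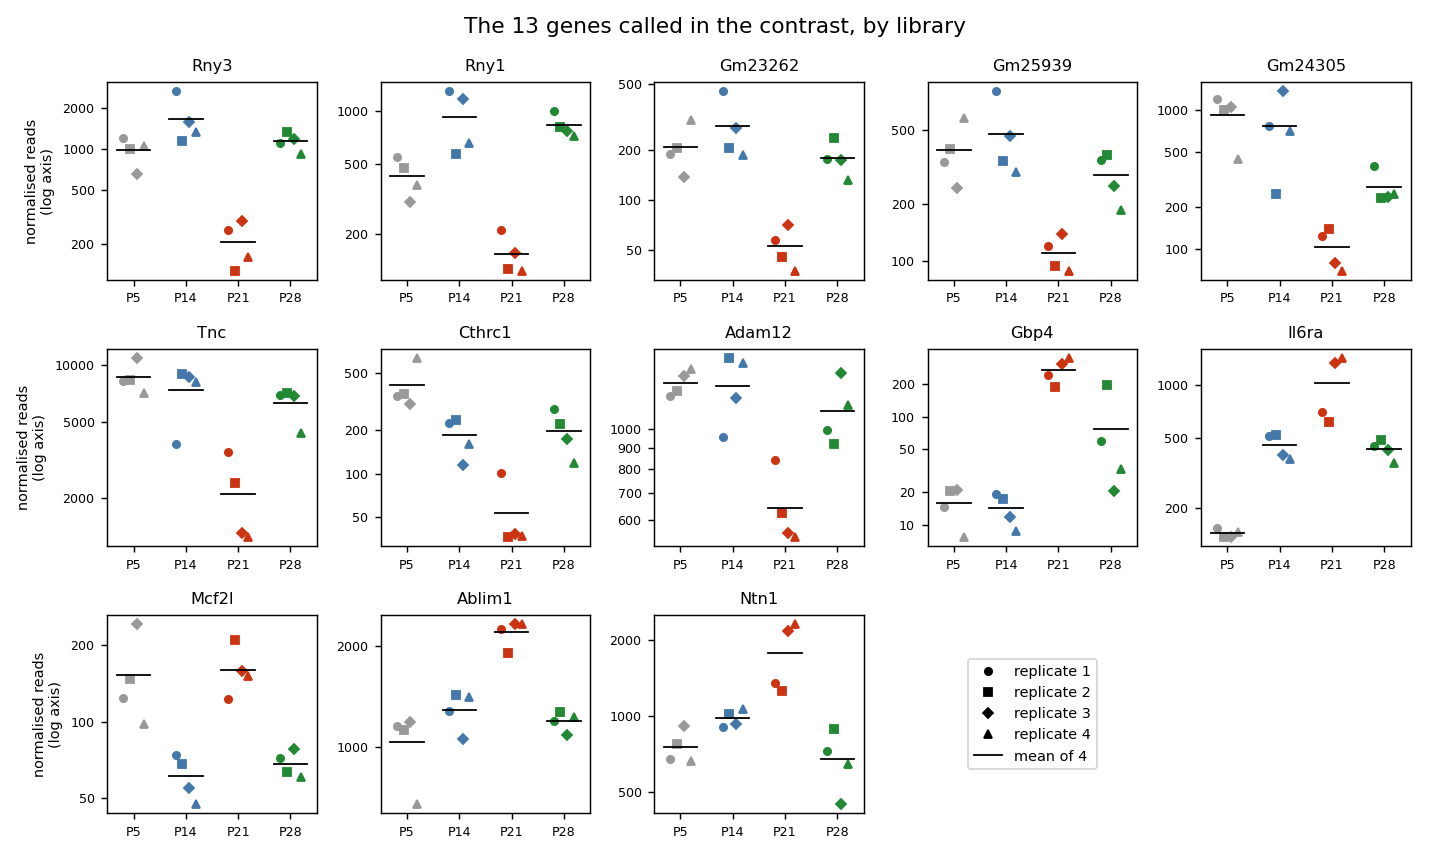
The normalised reads (log axis) of the 13 called genes are shown by age, with a symbol for each of 4 replicates and a bar for the mean of 4. In the 8 genes called lower all P21 points lie below all P14 and P28 points, and in the 5 called higher they lie above them apart from Gbp4, where P28 replicate 2 at 198 is above P21 replicate 2 at 187.

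Gbp4 had the largest contrast of the called genes. It is a guanylate-binding protein, one of the GTPases that interferon-gamma induces and that act against intracellular microbes. It had 242, 187, 306 and 351 normalised reads at P21, against 19.1, 17.4, 11.8 and 8.65 at P14 and 59.1, 198, 20.7 and 32.8 at P28. The P21 libraries were above all of P14 and P5 (7.63 to 20.8), and P28 replicate 2 lay inside the P21 range. The contrast was 3.23 ± 0.46 (limma adjusted p 0.010), with steps of 4.18 from P14 (0.0021) and 2.29 against P28 (0.073). Gbp4 shares 0.8% of its exon length with Gbp8 and Gbp9 and has close paralogs, so reads may be divided between copies.

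Genes of the same family and of antigen presentation were gathered in a list of 34 after Gbp4 had been seen, and the list supports nothing by itself. In it 25 had a positive and 1 a negative contrast at an unadjusted p under 0.05, where 6.66% of all genes were higher, with a median of 1.06 and 1 called, Gbp4. A list of 21 general interferon response genes, written with earlier results known, had 17 higher and none lower at that level, a median of 1.22 and none called. In neither list did a gene have all 4 P21 libraries above all 8 flanking ones. Median levels of the response list, centred over the 16 libraries, were 0.23 to 1.56 at P21, -1.83 to -0.13 at P14 and -0.14 to 1.19 at P28. Those of the list gathered after Gbp4 were 0.55 to 1.82, -1.22 to -0.34 and -0.30 to 1.28 in the same order. In both lists P21 replicate 1 was the highest of P21 and replicate 2 the lowest.

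Single members did not all follow that order of P21 replicates, since Gbp4 was highest in replicate 4. Iigp1, an interferon-induced GTPase, had 757, 183, 333 and 307 normalised reads at P21, against 15.9 to 24.9 at P14 and 50.3 to 417 at P28 (contrast 2.65, limma adjusted p 0.065). Gbp2, a second guanylate-binding protein, had 607, 127, 345 and 340 at P21, against 19.7 to 40.6 at P14 and 69.1 to 278 at P28 (contrast 2.29, limma adjusted p 0.084). For both genes, P28 replicate 2 was the highest of P28 and overlapped P21.

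Cxcl9, a T cell attractant induced by interferon-gamma, had 84.9, 16.1, 36.6 and 41.3 at P21, 0 to 1.66 at P14 and 0 to 37.7 at P28 (contrast 3.56, limma adjusted p 0.073). Nlrc5, which activates MHC class I genes, had 97.1 to 148 at P21, 3.94 to 24.1 at P14 and 42.4 to 195 at P28 (contrast 1.91, limma adjusted p 0.085). Both were above P14 in each P21 library and overlapped P28.

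The promoters of these genes were searched for the interferon element spelled GAAANNGAA, on both strands and with overlapping matches allowed. In the RefSeq promoters (GRCm38.p6, from 250 bases before to 50 after the start), 11 of the 16 interferon response genes with an entry held it (68.8%) and 12 of the 24 of the list gathered after Gbp4 (50%), against 2638 of 27025 genes (9.76%). Gbp4 and Iigp1 had no entry and were not searched. A gene with several starts was counted if any start held a match. A match is a description of the letters only, and all 4 promoters printed here hold one. The 4 promoters cover only part of the members named here, and that of Nlrc5 is not printed. Matching letters are in capitals, each promoter read on the strand of its gene: Gbp2 at chr3:142620413-142620712 on the plus strand, Gbp5 at chr3:142496684-142496983 on the plus strand, Cxcl9 at chr5:92328030-92328329 on the minus strand and Ifit3 at chr19:34583279-34583578 on the plus strand. Gbp5, a further guanylate-binding protein, had 45.4 to 110 normalised reads at P21, 3.64 to 10.1 at P14 and 2.96 to 78.2 at P28. Ifit3, an antiviral RNA-response protein, had 54.9 to 203, 3.94 to 54.8 and 51.3 to 100.
Gbp2: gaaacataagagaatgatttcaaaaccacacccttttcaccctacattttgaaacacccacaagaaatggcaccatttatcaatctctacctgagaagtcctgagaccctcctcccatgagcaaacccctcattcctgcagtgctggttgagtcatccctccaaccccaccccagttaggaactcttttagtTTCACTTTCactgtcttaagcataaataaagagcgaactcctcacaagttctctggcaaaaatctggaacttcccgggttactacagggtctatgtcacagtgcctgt
Gbp5: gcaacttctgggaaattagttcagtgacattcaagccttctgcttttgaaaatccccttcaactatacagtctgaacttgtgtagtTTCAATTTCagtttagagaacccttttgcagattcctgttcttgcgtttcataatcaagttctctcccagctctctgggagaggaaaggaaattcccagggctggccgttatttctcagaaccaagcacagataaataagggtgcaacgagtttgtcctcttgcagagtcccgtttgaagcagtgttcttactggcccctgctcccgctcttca
Cxcl9: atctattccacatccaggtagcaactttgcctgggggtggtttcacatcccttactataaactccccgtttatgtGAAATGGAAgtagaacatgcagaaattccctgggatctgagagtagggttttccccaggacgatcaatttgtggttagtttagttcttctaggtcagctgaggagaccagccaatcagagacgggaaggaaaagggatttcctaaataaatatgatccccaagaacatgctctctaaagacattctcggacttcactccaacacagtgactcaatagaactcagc
Ifit3: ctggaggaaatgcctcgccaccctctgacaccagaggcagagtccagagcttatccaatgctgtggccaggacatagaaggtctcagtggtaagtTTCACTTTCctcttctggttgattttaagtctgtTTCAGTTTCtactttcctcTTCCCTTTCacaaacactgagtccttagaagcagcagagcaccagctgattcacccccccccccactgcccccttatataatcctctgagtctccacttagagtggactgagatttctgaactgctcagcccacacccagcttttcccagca

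Glucocorticoid-induced genes were a second list with a raised median. Of 21 tested, 7 were higher and 1 lower at an unadjusted p under 0.05 (6.66% and 5.3% of all genes), with a median of 0.62 and none called. The median was 0.73 against P14 alone and 0.17 against P28 alone. List levels were 0.12 to 1.15 at P21, -0.36 to 0.38 at P14 and -0.08 to 0.62 at P28, so P21 overlapped both ages. Zbtb16, a transcription factor strongly induced by glucocorticoids, had 379, 990, 1132 and 1077 normalised reads at P21, against 124 to 291 at P14 and 273 to 540 at P28. P21 replicate 1 lay inside the P28 range (contrast 1.64 ± 0.31, limma adjusted p 0.059). Fkbp5, the FK506-binding protein that dampens the glucocorticoid receptor, had 256, 197, 287 and 272 at P21, against 120 to 196 at P14 and 116 to 159 at P28. Its groups did not overlap, by 1 normalised read between P21 replicate 2 and P14 replicate 1, and the contrast was 0.81 ± 0.19 (limma adjusted p 0.085).

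Klf15, a transcription factor of amino acid breakdown, had 92.9, 101, 130 and 149 at P21, against 27.6 to 96.2 at P14 and 16.4 to 43.8 at P28 (contrast 1.62, limma adjusted p 0.087). Tsc22d3, which encodes the leucine zipper protein GILZ, had 1029, 931, 2102 and 1981 at P21, 494 to 1261 at P14 and 555 to 1539 at P28 (contrast 0.66, limma adjusted p 0.409). Per1, a clock gene that glucocorticoids also induce, had 1372, 3978, 5130 and 5478, 1567 to 2409 and 1526 to 4905 (contrast 0.64, limma adjusted p 0.474). In Tsc22d3 and Per1, replicates 3 and 4 were the highest at P21, and replicates 1 and 2 did not exceed the highest flanking library. With P14 replicate 2 and P21 replicates 1 and 2 left out, the list's median was 1.09 in place of 0.62. Only the closely alike replicates 3 and 4 then stood for P21. Glul, the gene of glutamine synthetase, is not a member of this list. It had 980, 782, 782 and 871 at P21, against 339 to 638 at P14 and 378 to 543 at P28, without overlap (contrast 0.86, limma adjusted p 0.065). Glul, like Zbtb16, Fkbp5 and Klf15, was named after its values were seen.

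**Figure D4:**
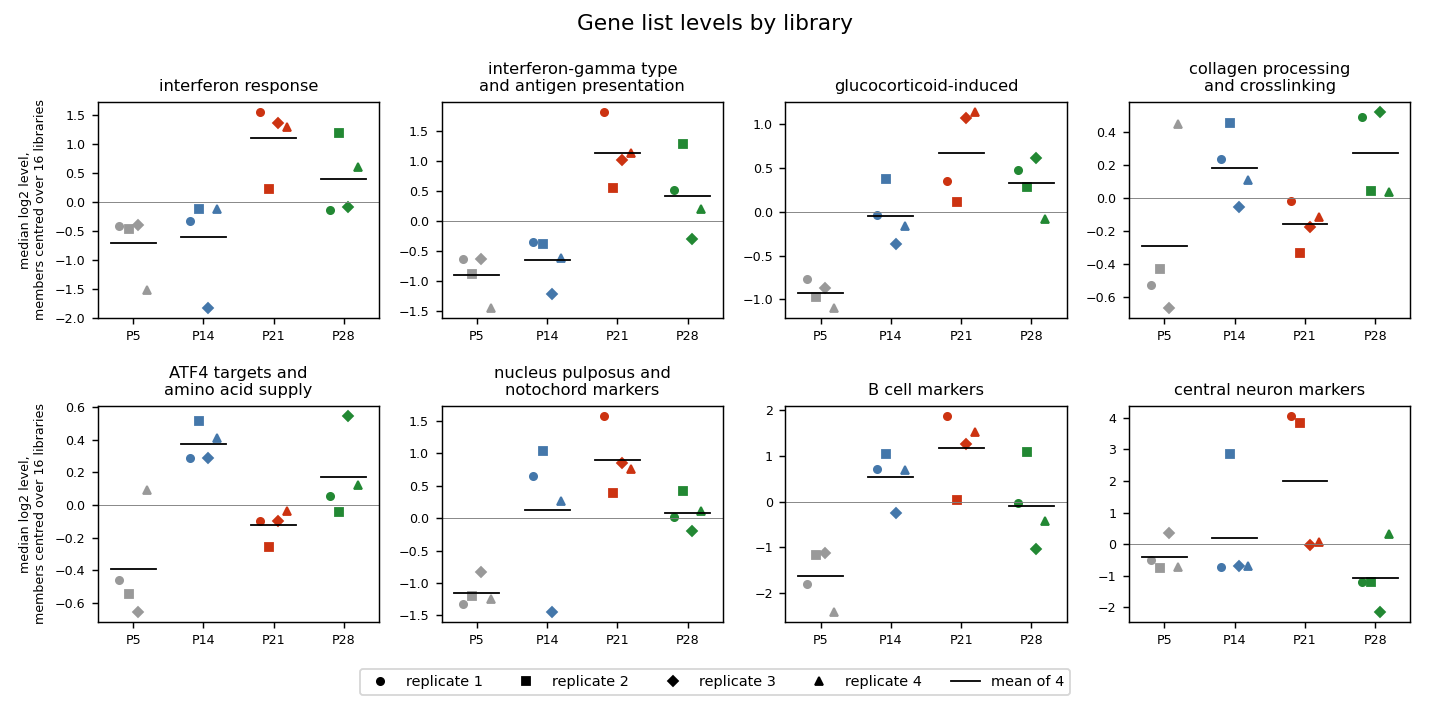
For 8 lists, each point is the median log2 level of the members in 1 library, with each member centred over the 16 libraries, by age and replicate, and the bar is the mean of 4. The interferon lists lie above 0 in the 4 libraries at P21 and below 0 in the 4 at P14. P28 replicate 2 lies among the P21 values in both, and in the response list P28 replicate 4 (0.61) does too. The neuron markers are high in P21 replicates 1 and 2 and P14 replicate 2.

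Markers of several other cell types had raised medians at P21 with none called, and in bulk samples a change in the number of cells of a type and a change in RNA per cell cannot be told apart. All 7 oligodendrocyte and all 16 endothelium markers tested had a positive contrast, with medians of 1.54 and 0.52. Against P28 alone the endothelium median was -0.05. The oligodendrocyte median was 0.17 without P14 replicate 2 and P21 replicates 1 and 2. Of 15 central neuron markers in the table, of 17 listed, 10 were higher at an unadjusted p under 0.05, with a median of 2.57. Their summed level was 1846 to 7086 normalised reads at P21, 2187 to 3797 at P14 and 1132 to 2086 at P28, and without P14 replicate 2 and P21 replicates 1 and 2 the median was 1.00. Without those libraries, 60 genes were called higher and 72 lower, the interferon response median was 1.54, and the called genes Gm25939 and Mcf2l gave an adjusted p of 0.054 each.

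For the nucleus pulposus and notochord, 12 of 14 markers were in the table, all with a positive contrast, 5 at an unadjusted p under 0.05, with a median of 0.87. Their sum was 14484 to 64355 at P21, 6710 to 34966 at P14 and 18039 to 23321 at P28. T, the notochord transcription factor brachyury, had 7043, 3130, 5679 and 5680 at P21, against 477 to 3842 at P14 and 1404 to 2508 at P28 (contrast 1.43, limma adjusted p 0.213). Krt19, a keratin of notochord-derived cells, had 1946, 518, 1213 and 1282, against 94.6 to 1042 and 372 to 610 (contrast 1.33, limma adjusted p 0.244). In both, P21 replicate 2 fell inside the flanking range.

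Among blood cell markers, none was called and the lists differed. Of 14 macrophage markers 3 had a negative contrast (median 0.22, and -0.30 against P28 alone), of 8 mast cell markers 2 (median 0.23) and of 12 red blood cell markers 1 (median 0.33). All 7 B cell markers tested had a positive contrast, 4 at an unadjusted p under 0.05, with a median of 1.08, and the summed level of 8 of the 11 listed was 435 to 978 at P21, 491 to 760 at P14 and 300 to 723 at P28. Ms4a1, the B cell antigen CD20, had 136, 18.0, 105 and 75.4 at P21, against 15.8 to 41.8 at P14 and 3.95 to 42.5 at P28. Ighd, the heavy chain of IgD, had 138, 72.9, 108 and 91.3, against 3.94 to 29.9 and 6.91 to 71.4, and its groups did not overlap (contrast 2.31, limma adjusted p 0.093). Il2rb, the interleukin 2 receptor beta chain of T and NK cells, had 79.1, 38.8, 50.1 and 54.0, against 7.88 to 14.4 and 13.1 to 33.0, also without overlap (contrast 1.89, limma adjusted p 0.059). Of the 12 T and NK cell markers 3 were in the table.

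The 12 neutrophil markers tested all had a positive contrast, 3 at an unadjusted p under 0.05, with a median of 1.06 and a sum of 486 to 4589 at P21, 169 to 1165 at P14 and 405 to 1953 at P28. Chil3, a chitinase-like protein of myeloid cells, had 166, 48.3, 85.9 and 108 at P21, against 1.97 to 19.1 at P14 and 9.86 to 55.3 at P28 (contrast 2.79, limma adjusted p 0.080). Across Ms4a1, Chil3, Krt19 and Gbp2, P21 replicate 1 was the highest of P21 and replicate 2 the lowest. The part of these cells in the P21 contrasts of interferon genes was not tested. Osteoclast and osteoblast markers had medians of -1.01 and -0.74, but against P14 alone these were 0.53 and -0.20 and against P28 alone -2.58 and -1.80, so the difference lay on the P28 side. All 22 skeletal muscle markers had a negative contrast, none at an unadjusted p under 0.05, with a median of -0.94. Their sum was 998 to 9345 at P21, 690 to 9849 at P14 and 1156 to 92094 at P28. Without P14 replicates 3 and 4 and P28 replicate 4 the median was 0.60.

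Other count models called more genes from the same libraries. On the whole reads recovered from the deposited values, edgeR called 29 genes higher (0.165%) and 12 lower (0.0683%), and DESeq2 called 446 higher (2.54%) and 187 lower (1.06%). Of the interferon response list DESeq2 called 7 of 21 and edgeR none, and of the list gathered after Gbp4 they called 18 and 4 higher. All 4 P21 libraries lay above all 8 flanking ones in 132 genes (0.751%) and below them in 107 (0.609%).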

How the data were processed

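Tail annulus fibrosus of wild-type mice was measured by RNA-seq in 16 pooled samples. Per the submitters' processing notes, reads were demultiplexed with bcl2fastq 2.20, trimming used Trimmomatic 0.36, alignment to GRCm38 used STAR 2.5.2b, counting used featureCounts (Subread 1.5.2) and normalisation used DESeq2. The strand setting is not given in the sources used here. The signal deposited by the authors is, per gene, a read count over a library's size factor on a linear scale. 1 factor per library returned whole reads within 0.001 for 100% of values, and these were used for edgeR 4.0.16 and DESeq2 1.42.0. Genes with few reads were already absent (lowest gene total 161 reads). Of 17724 genes, 147 with a mean under 10 were left out, and limma 3.58.1 in R 4.3.3 (trend, log2 of value + 1, two-sided, Benjamini-Hochberg, threshold 0.05) was fitted to all 16 libraries with a mean per age. Symbols, types and positions came from GENCODE M21, which held 17677 of the identifiers. The procedure was tested on simulated data.

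The contrast, the gene lists and the members were chosen with earlier results of these data known. Lists got counts and medians and no test. Genes were to be named if they were peak or dip genes with a mean of at least 100, if called in a list, or if among 12 matrix and signalling genes named throughout; small RNAs and predicted genes were left out of that rule. All other genes named were chosen after their values were seen. The interferon-gamma-type list and the immunoglobulin constant list were added then too. Other pseudocounts, filters, scalings, tools, sample sets, a covariate, a replicate block and each library left out were tried. The precision of a value is limited by counting error and by 4 pools per age.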

Additional observations from a re-analysis of the deposited data

Results flagged for a closer look

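In groups of 4 libraries, single values stood far from the other 3 by Dixon's gap test, which chance meets in about 1 of 20 groups; 207 groups of 69 named genes were examined and 14 were met. No explanation was tested for any of them. In called genes, Tnc in P14 replicate 1 was at 3842 normalised reads, below the 8182 to 8970 of the other 3, and in P28 replicate 4 at 4405, below 6854 to 7133. Cthrc1 had 100.8 in P21 replicate 1 against 36.0 to 38.1, and Ablim1 had 1904 in P21 replicate 2 against 2247 to 2316. Gm24305 had 398.8 in P28 replicate 1 against 234.6 to 248.5.

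At P21, replicate 1 was the high one for Acan at 137200 (89530 to 96020 in the others), for Mki67, a marker of dividing cells, at 3822 (1250 to 1506) and for Gdf10, a BMP family ligand, at 192.2 (29.1 to 43.7). Replicate 2 was the high one for Gli1, a Hedgehog target, at 1701 (610.8 to 761.6) and for Etv4 at 144.8 (59.6 to 73.3). At P28, Col1a1 had 4573000 in replicate 3 (2194000 to 2327000), Snora23 146.3 in replicate 2 (84.5 to 93.6) and Rpph1 54640 in replicate 1 (39410 to 40460). At P14, Cxcl14 had 835.3 in replicate 3 (1195 to 1250).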

How the results depend on the processing

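The main counts were 5 genes higher, 8 lower, 1 peak and 5 dips. The counts below are in the order higher, lower, peak, dip, and none of them says which genes were called. A pseudocount of 10 gave 44, 18, 7 and 6, and a mean of at least 100 gave 8, 10, 2 and 5. Scaling to the same total gave 69, 8, 2 and 2, to the upper quartile 6, 9, 2 and 5, and quantile normalisation 29, 23, 2 and 4. edgeR gave 29, 12, 2 and 3 and DESeq2 446, 187, 66 and 28, with 3 adjusted p-values not available. Fitting P14, P21 and P28 alone gave 7, 6, 3 and 5. Averaging P21 replicates 3 and 4 gave 0, 3, 0 and 2. Leaving out P14 replicate 2 and P21 replicates 1 and 2, which held the neuron markers, gave 60, 72, 5 and 11. In that setting P21 was left with the closely alike replicates 3 and 4 alone. Keeping libraries with a Gm26917 share under 6% gave 2, 5, 0 and 4, and that share as a covariate 10, 17, 1 and 8. Without P14 replicates 3 and 4 and P28 replicate 4, which by their sex-linked genes came mostly from 1 sex, the counts were 2, 5, 0 and 3. With steps at an unadjusted p there were 5 peaks and 8 dips, and with no overlap in place of the steps 4 and 8. With each library left out in turn the ranges were 0 to 89 higher, 3 to 53 lower, 0 to 13 peaks and 2 to 11 dips. The counts fell to 0 or 1 higher and 3 or 4 lower without P5 replicate 1 or 2, P14 replicate 3 or 4, P21 replicate 3 or 4 or P28 replicate 1, and to 1 and 6 without P28 replicate 4 and 3 and 8 without P28 replicate 3. They rose to 57 and 34 without P5 replicate 4, 24 and 20 without P14 replicate 2, 12 and 32 without P21 replicate 1, 89 and 53 without P21 replicate 2 and 14 and 9 without P28 replicate 2. The cause was not tested in any of these.

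The replicate numbers were not used to pair the samples in the main fit. Same-numbered samples of 2 ages correlated at -0.35 to 0.37 over 24 pairs, and 7 of 16 samples correlated best with their own number. Whether samples of the same number were processed together was not tested. A replicate block gave 5, 6, 0 and 4.

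None of the 13 called genes reversed in the 33 alternatives (32 for Gbp4, which a mean of at least 100 leaves out), and Rny3, Rny1 and Gm23262 kept the call in all of them. The rest lost it in 5 (Gbp4) to 16 (Gm24305 and Il6ra). Of 56 other named genes, 8 reversed at least once, all with small uncalled contrasts. Under quantile normalisation Col2a1 was 0.159, Acan 0.160 and Mkx 0.0308. At the same total Acan was 0.028, Tnmd 0.121, Mkx 0.168 and Sox9 0.0508. Without P14 replicate 2 and P21 replicates 1 and 2, Tnmd was 0.0217, Mkx 0.101, Mki67 -0.0909, Gli1 -0.208 and Rn7sk -0.0953. With a Gm26917 share under 6%, Mkx was 0.0795 and Mki67 -0.0132, and without the libraries of mostly 1 sex Mkx was 0.0577. With 1 library left out, the ranges were -0.236 to 0.0947 for Tnmd, -0.148 to 0.0302 for Mkx, -0.202 to 0.335 for Mki67, -0.209 to 0.283 for Gli1 and -0.0196 to 0.163 for Rn7sk.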
